A study of Mus musculus with 18 samples.

Results

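The genes described here encode CTCF and the cohesin machinery: Ctcf, Smc3, Rad21, Stag1, Stag2, Nipbl, Mau2, Wapl, Pds5a and Pds5b, 10 of the 21883 protein-coding genes of the mouse RefSeq table used here. They were chosen by name, and every CTCF or SMC1A peak within 20 kb of their gene bodies was taken. That gave 45 of the 35221 merged SMC1A regions of the genome and 95 of the 63947 merged CTCF regions.

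Double positive (DP) thymocytes, the T cell precursors that carry both CD4 and CD8, were sorted from the thymus of tamoxifen-treated mice. The Satb1 KO group lost the chromatin organiser gene Satb1 by induction with tamoxifen, and the WT group received tamoxifen too. CUT&RUN, in which an antibody guides a nuclease to a protein on chromatin, gave 7 peak lists analysed here of the 18 samples: SMC1A from 2 KO and 2 WT samples, and CTCF from 2 KO samples and 1 WT sample. The remaining samples (a second WT CTCF library, H3K27ac, IgG and input) were not used here. The labels state neither the strain, the age or the driver of the recombinase nor whether replicates were separate animals; p-values therefore reflect sample-to-sample spread that could be technical. Lists of CTCF and SMC1A peaks do not measure how much Satb1 a sample expressed.

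Cohesin is a ring built from SMC1A, SMC3 and RAD21, to which either STAG1 or STAG2 binds. NIPBL and MAU2 form the loader that drives the ring along DNA as it extrudes loops, WAPL releases it, and PDS5A and PDS5B bind the ring and take part both in its release and in its protection. CTCF, a zinc finger protein, halts the moving ring at its binding sites. In thymocytes such loops shape the antigen receptor loci and many developmental genes, and the peaks near these 10 genes show where the machinery sat on the genes that encode it.

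Stretches in front of 3 member genes are given as examples of the DNA before gene starts: Pds5b, whose start lay under strong peaks of both proteins, Ctcf itself, and Pds5a, whose start lay under no SMC1A peak. Letters are from RefSeq, GRCm38.p6, 5′ to 3′ on the gene's own strand. Each begins 250 bases before the start and stops at the outermost RefSeq end of the gene, after 136, 186 and 250 bases. Capitals mark AGGGGGCGC, a core of the CTCF motif, picked after the letters were seen. Pds5b is at chr5:150673577-150673712 on the plus strand, Ctcf at chr8:105636288-105636473 on the plus strand and Pds5a at chr5:65698237-65698486 on the minus strand.
Pds5b: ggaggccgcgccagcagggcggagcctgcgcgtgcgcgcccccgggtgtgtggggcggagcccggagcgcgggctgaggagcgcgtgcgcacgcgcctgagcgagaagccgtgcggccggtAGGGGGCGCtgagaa
Ctcf: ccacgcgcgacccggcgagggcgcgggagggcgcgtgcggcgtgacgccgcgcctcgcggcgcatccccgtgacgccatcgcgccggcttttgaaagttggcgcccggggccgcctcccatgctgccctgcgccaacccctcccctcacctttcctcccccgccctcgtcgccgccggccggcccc
Pds5a: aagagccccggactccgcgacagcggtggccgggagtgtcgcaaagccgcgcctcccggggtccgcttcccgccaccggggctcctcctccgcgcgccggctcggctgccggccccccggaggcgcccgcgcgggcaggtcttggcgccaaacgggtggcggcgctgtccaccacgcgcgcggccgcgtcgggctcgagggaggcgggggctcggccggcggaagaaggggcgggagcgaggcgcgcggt
The match before Pds5b begins 129 bases ahead of the start. CTCF summits lay 64 and 191 bp from it in the KO lists, against 37 bp in the WT list. SMC1A summits lay 167 and 123 bp away in the KO lists, against 140 and 170 bp in the WT lists. On either strand, 1.25% of 32851 promoter windows of 300 bases hold these 9 letters, and 1 of the 7 members with a window does. With any letter at position 7 (AGGGGGNGC, which includes the first) the share is 2.68%, and Smc3 joins Pds5b, though its match lies 342 to 441 bp from the summits of the peaks there. Pds5b then has a second match, AGGGGGGGC, 17 bases past its start and outside the printed stretch. SMC1A summits lay 22 and 22 bp from this second match in KO and 5 and 25 bp in WT. CTCF summits lay 81 and 336 bp from it in KO and 108 bp in WT. All 3 printed stretches are rich in G and C, at 79.4% for Pds5b, 79.0% for Ctcf and 80.4% for Pds5a, against a median of 52.4% over all promoter windows. Those windows of 300 bases are longer than the stretches. Smc3 and Mau2, with peaks of every list within 1 kb of their starts, had 64.4% and 54.8% over 250 bases. Both values were above that median but below those of the 3 printed stretches.

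The machinery was found at its own genes. Each of the 10 genes had an SMC1A region within 20 kb, and 9 had one that all 4 SMC1A lists held; the exception was Stag2, whose best regions were each in 3 lists. For CTCF, 10 of 10 genes had a region in all 3 lists. The share of all protein-coding genes with such regions within 20 kb is not given, so these gene counts do not set the 10 apart. Of the 45 SMC1A regions, 19 (42.2%) were in all 4 lists, against 35.0% of SMC1A regions over the genome, and 15 (33.3%) were in 1 list, against 35.8%. Of the 95 CTCF regions, 21 (22.1%) were in all 3 lists, against 27.0% over the genome, and 59 (62.1%) were in 1 list, against 51.6%.

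Lists differed in length and background, and those values stand beside every count that follows. SMC1A lists held 28151 and 20689 peaks in KO and 19882 and 20638 in WT, and CTCF lists held 55750 and 22928 in KO and 38989 in WT. Read depth is unknown. The background under the member peaks, solved from the caller's statistics, had a median of 0.989 and 0.557 reads in KO and 0.833 and 0.664 in WT for SMC1A, and of 2.54 and 4.39 in KO and 1.44 in WT for CTCF. KO replicate 1 had the longest list for both proteins, and it alone held 9 of the 15 SMC1A regions and 38 of the 59 CTCF regions found in 1 list. Markers of DP thymocytes had an SMC1A region in all 4 lists at 8 of 8 genes. The other markers had one at 2 of 5 B cell, 1 of 4 myeloid, 2 of 4 erythroid and 2 of 5 thymic epithelial genes. For CTCF regions in all 3 lists the counts were closer. They were 8 of 8 DP, 4 of 5 B cell, 0 of 4 myeloid, 3 of 4 erythroid and 3 of 5 thymic epithelial markers. No share over all genes is given beside these counts, and such peaks do not measure expression.

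Counted per list, the 10 genes had 37 and 25 SMC1A regions in KO and 26 and 30 in WT. Per 1000 regions of the list these were 1.335 and 1.251 in KO, against 1.345 and 1.495 in WT. Both KO values were thus below both WT values, but those of batch 1 were nearly equal, and 2 against 2 cannot reach an exact permutation p under 0.33. CTCF gave 74 and 26 regions in KO and 52 in WT, or 1.346 and 1.241 per 1000 in KO, against 1.436 in WT. Nipbl had the most SMC1A regions of a KO list, 7 in replicate 1, and Ctcf the most of a WT list, 7 in replicate 2.

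**Figure D1:**
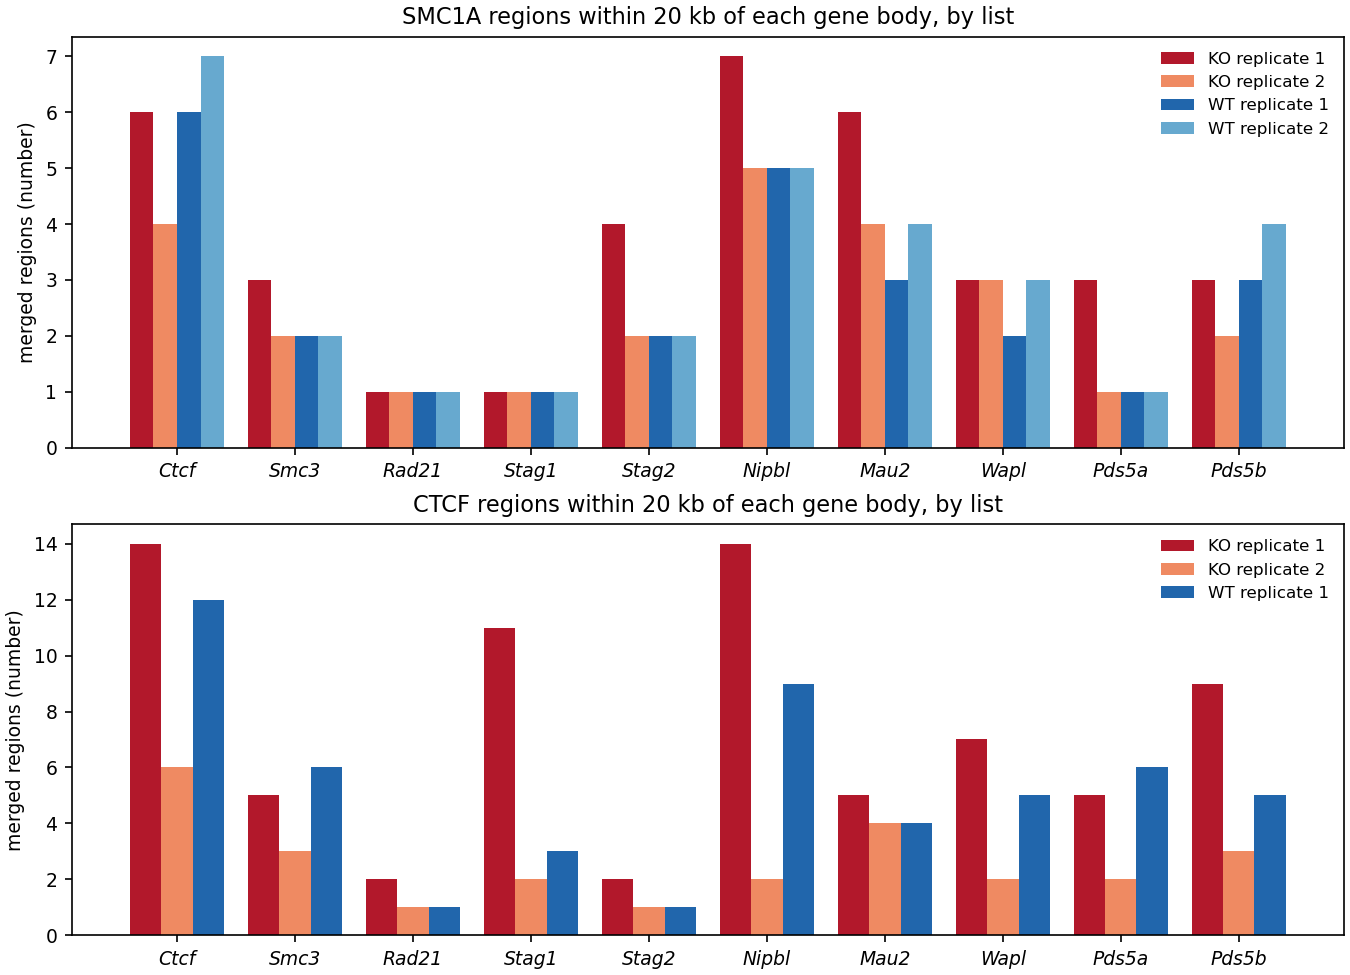
Bars give the number of merged SMC1A (top) and CTCF (bottom) regions within 20 kb of each gene body, one bar per list, KO left of WT. Rad21 and Stag1 had 1 SMC1A region in every list, while for CTCF KO replicate 1 stood highest and KO replicate 2 lowest at Ctcf, Nipbl and Pds5b.

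At the gene starts, SMC1A peaks of all 4 lists lay within 1 kb at 6 of the 10 genes: Ctcf, Smc3, Stag1, Mau2, Wapl and Pds5b. Over all protein-coding genes that share was 30.1%. CTCF peaks of all 3 lists lay within 1 kb at 8 of 10, the same 6 with Stag2 and Pds5a, against 30.8% of all genes. In single lists SMC1A was at 8 and 8 starts in KO, against 6 and 7 in WT, and CTCF at 8 and 8 in KO, against 8 in WT. Over all genes the SMC1A lists held 41.8% and 35.7% of starts in KO and 37.6% and 37.1% in WT. The genotype difference for SMC1A comes from 2 genes. At Stag2 WT replicate 1 lacked the peak that the other lists held. At Pds5a the nearest SMC1A peak edge was 334 and 888 bp from the start in KO, against 1375 and 1051 bp in WT, so that gene sits close to the 1 kb limit, and with a limit of 300 bp the count over all 4 lists was again 6. For Rad21, Stag2 and Nipbl the table gives no start, so both gene ends were used. Rad21 and Nipbl had no peak of any list within 1 kb of those ends. Whether their true starts had one is unknown. Mau2 had a second RefSeq start, 70029513, at least 12270 bp from the peaks of every list, and was counted by its other start. At 5 kb the number with peaks of every list was 9 for SMC1A and 9 for CTCF. A wider limit takes in more starts of any gene, and no share over all genes is given at 5 kb or at 300 bp. These counts therefore do not set the 10 genes apart.

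The ring genes are Smc3 and Rad21. Smc3 (chromosome 19, 53600396 to 53645831) encodes the partner of SMC1A in the ring. Its start region, 53599726 to 53600643, had an SMC1A −log10 q of 83.0 and 53.2 in KO and 36.0 and 43.5 in WT. Pile-ups at the summit were 75 and 43 reads in KO and 40 and 39 in WT, so both KO lists stood above both WT lists. CTCF reached a −log10 q of 389.1 and 32.8 in KO and 107.2 in WT in the region 53598591 to 53600662, with KO values on both sides of the WT value. The SMC1A and CTCF summits there were 10 bp apart by their medians, and they lay upstream of the start, for SMC1A at -341 and -368 bp in KO and -320 and -419 bp in WT, and for CTCF at -345 and -342 bp in KO and -352 bp in WT. Rad21 (chromosome 15, 51962604 to 51993538) encodes the subunit that closes the ring. Its 1 SMC1A region lay inside the gene body at 51991524 to 51992145, with a −log10 q of 13.0 and 11.8 in KO and 10.1 and 22.2 in WT. Its peaks ended 1519 and 1501 bp from the nearer gene end in KO, against 1393 and 1519 bp in WT. The CTCF region around it, 51991514 to 51992304, had 79.7 and 6.47 in KO and 17.7 in WT.

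Stag1 and Stag2 encode the alternative subunits that bind RAD21 and contact CTCF. Stag1 (chromosome 9, 100597709 to 100958544) is the longest of the 10 genes at 360.8 kb, yet it had a single SMC1A region, 100642733 to 100643847. It covered the RefSeq start used, 100643448, which lies inside the gene body and not at its end. That region had a −log10 q of 18.7 and 9.01 in KO and 8.39 and 10.2 in WT, with overlapping groups. Its CTCF region, 100642180 to 100643909, had 115.2 and 11.9 in KO and 50.6 in WT, and the other 11 CTCF regions of the gene had no SMC1A region. Stag2 (chromosome X, 42149297 to 42277186) had SMC1A regions within one CTCF region, 42148312 to 42152569. The one at the gene end, 42148776 to 42149707, had a −log10 q of 6.04 and 7.75 in KO and was in WT replicate 2 (11.1) but not in WT replicate 1. The CTCF region had 85.7 and 5.02 in KO and 33.6 in WT.

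Nipbl and Mau2 encode the loader. Nipbl (chromosome 15, 8289824 to 8465315) had 4 SMC1A regions in all 4 lists, all in the gene body and at least 13807 bp from its ends. The one with the highest value in its weakest list, 8450829 to 8451508, had a −log10 q of 16.3 and 7.86 in KO and 12.9 and 8.30 in WT, and its median summit was 3 bp from that of CTCF. The other 3 lay under one CTCF region of 4693 bp, 8442657 to 8447349, with a CTCF −log10 q of 47.0 and 13.2 in KO and 14.9 in WT. Mau2 (chromosome 8, 70014527 to 70042734) begins beside Sugp1, and the region there, 70042488 to 70043228, touches both starts. SMC1A had a −log10 q of 42.0 and 23.6 in KO and 34.6 and 36.3 in WT, and CTCF had 112.9 and 21.0 in KO and 30.8 in WT. The strongest SMC1A region of the gene lay 17.6 kb beyond its far end near the start of Gatad2a, at 69996070 to 69996930, with 123.2 and 82.3 in KO and 133.2 and 86.1 in WT. Pile-ups there were 79 and 52 reads in KO and 81 and 56 in WT. CTCF at the same place reached 480.6 and 44.2 in KO and 142.0 in WT.

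Wapl, Pds5a and Pds5b encode the factors that release or hold the ring. Wapl (chromosome 14, 34672379 to 34747983) had SMC1A at its start, 34673319 to 34674139, with a −log10 q of 18.1 and 12.6 in KO and 36.7 and 20.3 in WT. Both KO lists stood below both WT lists in −log10 q. Pile-ups were 19 and 13 reads in KO and 30 and 19 in WT, so by pile-up the groups met at 19. CTCF there had 64.9 and 6.85 in KO and 38.8 in WT. Pds5a (chromosome 5, 65605719 to 65698236) had 1 SMC1A region in all lists, 65696348 to 65697348, among the weaker ones at 10.8 and 2.66 in KO and 7.31 and 9.55 in WT. Only KO replicate 1 held a second region upstream of that start, 65698570 to 65699125, with 11.1. Pds5b (chromosome 5, 150673713 to 150810669) had SMC1A over the start, 150673354 to 150674037, with 33.2 and 29.0 in KO and 28.9 and 30.3 in WT, the narrowest spread of the 6 starts held by every list. A stronger region 7.6 kb upstream of the gene near N4bp2l2, 150664750 to 150666086, had 102.5 and 45.7 in KO and 80.1 and 61.7 in WT.

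Ctcf (chromosome 8, 105636474 to 105682922) had the member region with the highest SMC1A value in each KO list. In each WT list the Mau2 region near Gatad2a was the highest, at 133.2 and 86.1. The Ctcf region lay 12.2 kb upstream of the gene body, at 105622290 to 105624313. It had a −log10 q of 186.1 and 90.7 in KO and 106.3 and 61.4 in WT. Pile-ups there were 124 and 64 reads in KO and 76 and 50 in WT. CTCF protein sat at the same place with 341.3 and 49.4 in KO and 79.5 in WT. At the start of Ctcf, 105635599 to 105637440, SMC1A had 51.1 and 18.7 in KO and 28.1 and 23.4 in WT, with KO values on both sides of the WT values. CTCF at its own start, 105634906 to 105637478, had 134.0 and 20.7 in KO and 40.8 in WT.

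**Figure D2:**
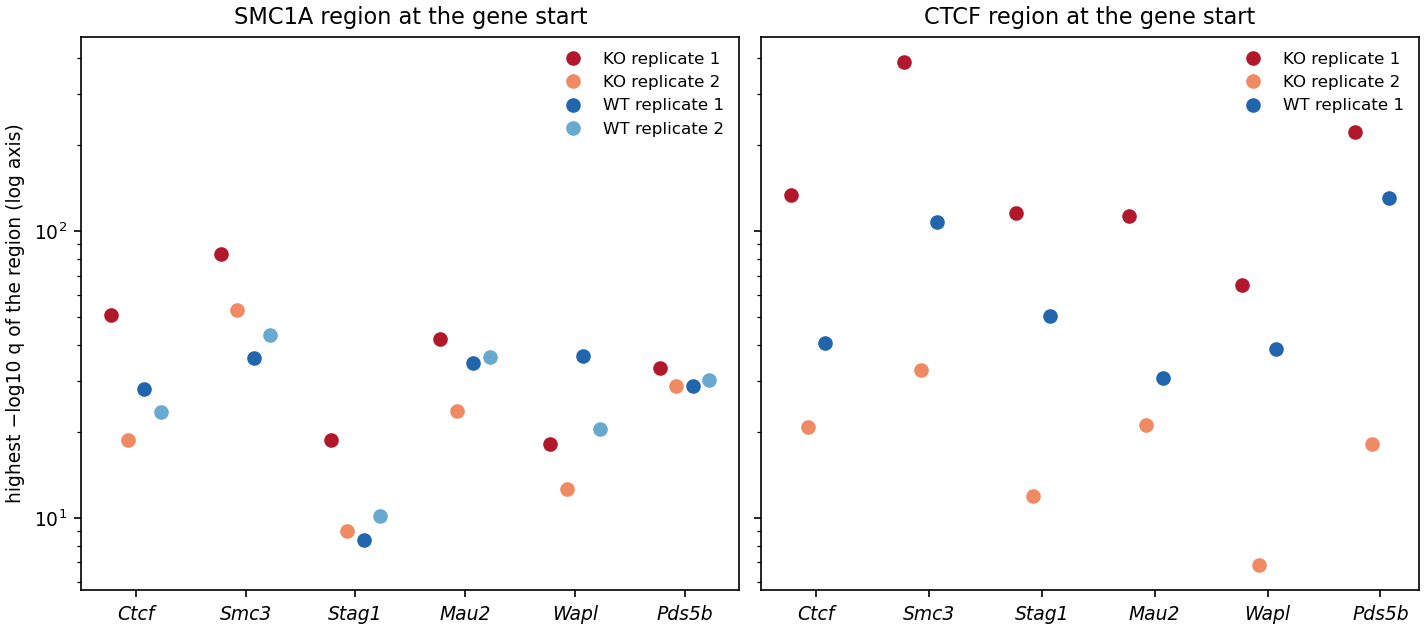
Each point is 1 list's highest −log10 q (log axis) in the region at the start of 6 genes, SMC1A at left and CTCF at right, KO left of WT. For SMC1A, KO and WT points interleave at 4 genes, both KO points are higher at Smc3 and both are lower at Wapl; for CTCF, the WT point lies between the KO points at all 6.

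Read over the 19 SMC1A regions that all 4 lists held, the order of the genotypes was near that of the genome. The −log10 q was higher in both KO lists than in both WT lists at 4 of 19, against 21.2% of the 12326 such regions of the genome. It was lower in both KO lists at 1 of 19, the start of Wapl, against 11.7%. Besides the Smc3 start, the 4 were a region in Nipbl, a region 10.2 kb upstream of Wapl and a region 12.4 kb beyond the far end of Mau2, the last 3 named after their values were seen. The Mau2 one, 70001560 to 70002095, had 28.8 and 15.5 in KO and 5.18 and 5.62 in WT. The −log10 q also moves with depth and background, whose part in these orders was not tested.

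Few SMC1A regions differed by presence between genotypes. A region is called lost where every WT list and no KO list held it, and gained where every KO list and no WT list held it. Lost SMC1A regions numbered 2 of the 23 in both WT lists (8.70%), against 4.15% over the genome. Gained ones numbered 1 of the 23 in both KO lists (4.35%), against 13.1% over the genome. One lost region lay 1.42 kb before the start of Ctcf, at 105634997 to 105635269, with a WT −log10 q of 3.92 and 2.57, and pile-ups of 9 and 7 reads. The other was 0.69 kb after the start of Pds5b, at 150674337 to 150674671, with 6.67 and 8.37 in WT, and pile-ups of 10 and 11 reads. The gained region lay near Gatad2a beyond Mau2, at 69995351 to 69995789, with 5.56 and 4.70 in KO, and pile-ups of 9 and 7 reads. All 3 were small, 273 to 439 bp, and each lay 281 to 330 bp from a region that all 4 lists held, so in no case did a gene lose or gain its main SMC1A region.

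**Figure D3:**
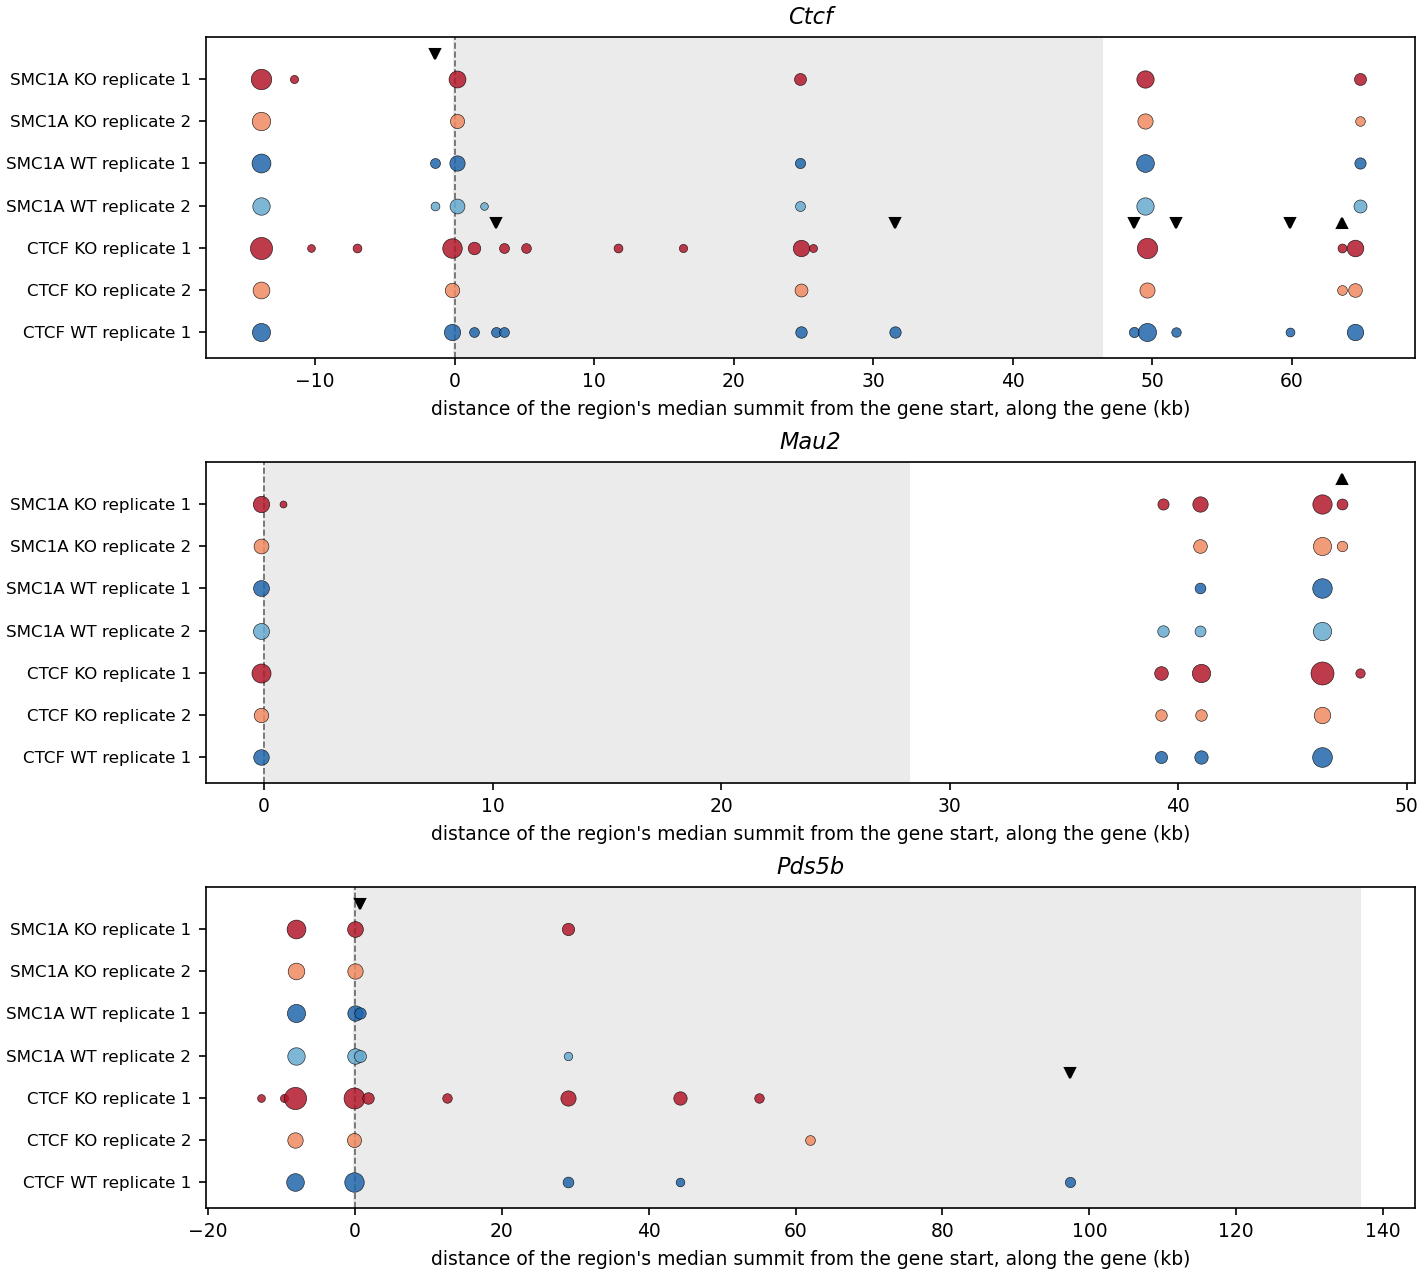
Points show the regions each list held at Ctcf, Mau2 and Pds5b by distance from the gene start (kb, along the gene), larger for a higher −log10 q; shading is the gene body, and triangles above a protein's rows mark regions lost (pointing down) or gained (pointing up) in KO. The 2 lost SMC1A regions and the 1 gained stand beside larger points present in all 4 SMC1A lists.

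These SMC1A counts rest on single lists, and no genome shares are given for the counts with a list left out. Leaving out 1 list at a time gave 2 to 5 lost, with 4 without KO replicate 1 and 5 without WT replicate 1, and 2 to 10 gained, with 10 when the longer KO list stood alone without KO replicate 2, 3 without KO replicate 1 or without WT replicate 2, and 2 without WT replicate 1. Within batches, batch 1 had 14 regions in KO only (35.0%), 3 in WT only (7.50%) and 23 in both, and over the genome these shares were 36.7% and 9.28%. Batch 2 had 4 in KO only (11.8%), 9 in WT only (26.5%) and 21 in both, against genome shares of 22.4% and 22.8%.

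CTCF regions were lost at 6 of the 10 genes. They numbered 18 of the 52 regions of the WT list (34.6%), against 18.9% over the genome: 5 at Ctcf, 4 each at Nipbl and Pds5a, 2 each at Smc3 and Wapl, and 1 at Pds5b. All were weak, with a WT −log10 q of 2.62 to 6.71 (median 3.84) and lengths of 200 to 396 bp, 14 lay in gene bodies, and 0 overlapped an SMC1A region. Of the other WT regions 21 were in both KO lists, with a WT −log10 q of 6.96 to 142.0 (median 33.6), and 13 were in KO replicate 1 alone, with 2.39 to 12.3 (median 5.17). With the WT regions divided at a −log10 q of 10, chosen after their values were seen, 0 of 19 stronger ones were lost, against 0.519% over the genome, and 18 of 33 weaker ones (54.5%), against 33.1%.

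By position, Ctcf lost 105639398 to 105639670, 105667999 to 105668211 (the highest WT value, 6.71), 105685154 to 105685451, 105688235 to 105688434 and 105696233 to 105696432. Nipbl lost 8283965 to 8284264, 8365460 to 8365659, 8376947 to 8377146 and 8397525 to 8397920. For Pds5a they were 65628911 to 65629146, 65688804 to 65689064, 65693170 to 65693369 and 65697567 to 65697766, the last 0.57 kb after its start. Smc3 lost 53628025 to 53628265 and 53639322 to 53639521, Wapl lost 34690770 to 34691103 and 34723227 to 34723426, and Pds5b lost 150771128 to 150771509. Gained CTCF regions numbered 2 of 23 (8.70%), against 8.29% over the genome, at Ctcf near Acd and Pard6a (105699940 to 105700270, −log10 q of 2.69 and 3.72 in KO) and in Pds5a (65695317 to 65695648, 2.42 and 2.81). Rad21, Stag1, Stag2 and Mau2 lost and gained 0 CTCF regions. Of the 18 lost regions 2 lay within 1 kb of a CTCF region that all 3 lists held. They were 105685154 to 105685451 at Ctcf, 11 bp away, and 65697567 to 65697766 at Pds5a, 150 bp away. The gained ones lay 184 and 451 bp from such a region.

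**Figure D4:**
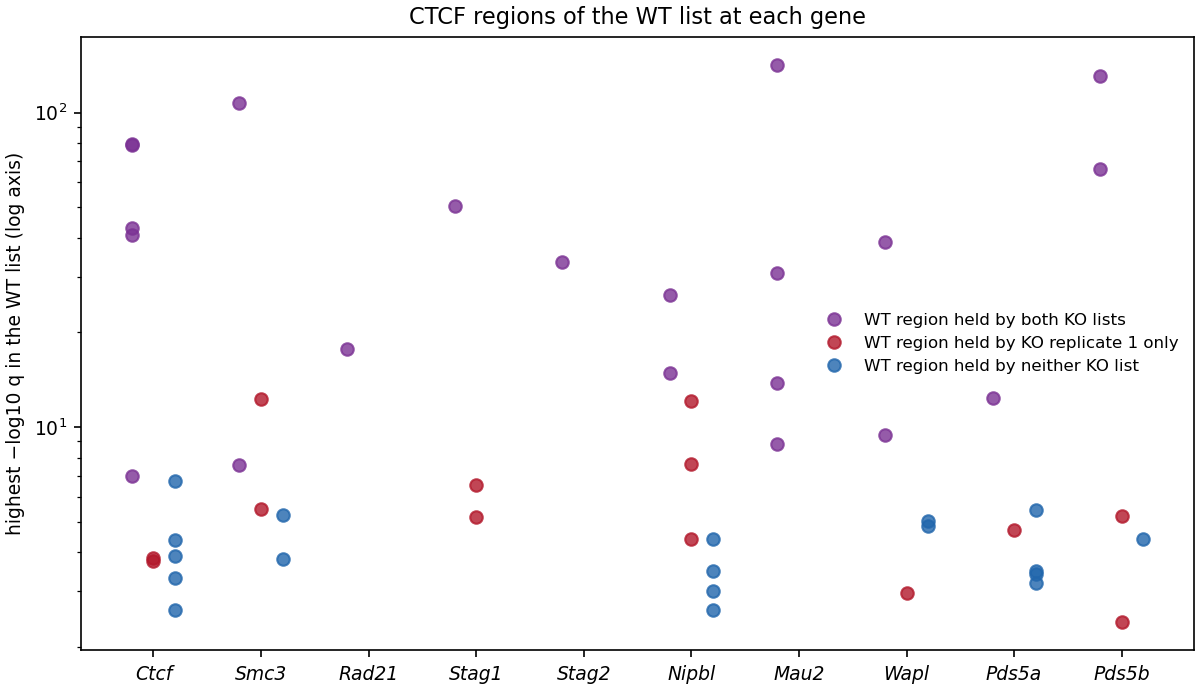
Each point is a CTCF region of the WT list, placed by gene and by its highest −log10 q in WT (log axis), and coloured by whether both KO lists, KO replicate 1 only or neither KO list held it. The 18 regions in neither KO list all lie at 6.71 or below, and each of the 10 genes has at least 1 region held by both KO lists.

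The CTCF losses depended on the lists and on the cut for peaks, and only 1 WT list was compared. With lists of equal length, or with peaks of −log10 q 5 or more, 4 were lost and 0 gained. The 18 lost regions had a median WT −log10 q of 3.84, so a cut at 5 took out most of them in advance. No genome shares are given for these settings or with a list left out. Without KO replicate 1, which held 55750 peaks, 31 were lost, and without KO replicate 2 the count was 18. In batch 1, the only batch with both genotypes, 40 regions were in KO only (43.5%), 18 in WT only (19.6%) and 34 in both (37.0%), against 41.7%, 11.4% and 47.0% over the genome.

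The 19 SMC1A regions in all 4 lists each overlapped a CTCF region in all 3 lists, which 83.2% of such regions did over the genome. The median summits of the proteins in these 19 pairs were 59 bp apart at the median, within a range of 3 to 1612 bp. In 12 pairs they were 100 bp or less apart. In the other direction, 17 of the 21 CTCF regions in all 3 lists overlapped such an SMC1A region, against 57.6% over the genome. Over all 45 SMC1A regions 39 (86.7%) overlapped a CTCF region of any list, against 89.8% of the genome's, and each of the other 6 was in 1 list, 200 to 203 bp long, with 5 of them in KO replicate 1. By list the share at CTCF was 86.5% (95% Wilson interval 72.0 to 94.1) and 100% (86.7 to 100) in KO, against 100% (87.1 to 100) and 96.7% (83.3 to 99.4) in WT. KO minus WT, the mean share differed by -5.09 points, less than the KO lists differed from each other (two-sided exact permutation p = 1; the smallest p that 2 against 2 allows is 0.33). It was -13.5 points in batch 1 and 3.33 in batch 2, and 1.67 without KO replicate 1.

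The density of regions per gene, log2((regions + 0.5) per 1000 regions of the list), was tested with limma over all protein-coding genes with a mean of 3 or more regions. For SMC1A 87 of 4547 genes (1.91%) had an adjusted p under 0.05, 49 higher and 38 lower in KO. With the replicate number as a block the count was 45, with each list's median set to 0 it was 0, and with lists of equal length it was 0. Over all 4547 genes tested, 592 had an unadjusted limma p under 0.05. Of the 10 genes 4 had enough regions, and 0 were called, with 1 at an unadjusted p under 0.05. That was Ctcf, at a mean log2 density of -2.12 in KO and -1.50 in WT. Its difference was -0.62 ± 0.27 (SE, limma adjusted p = 0.24), and -0.39 with lists of equal length. Ctcf had 6 and 4 SMC1A regions in KO and 6 and 7 in WT, so its counts were equal in batch 1. The difference was -0.68 ± 0.37 at Pds5b (adjusted p = 0.41), 0.19 ± 0.28 at Mau2 (adjusted p = 0.79) and -0.03 ± 0.27 at Nipbl (adjusted p = 0.94). Their median was -0.33, beside -0.14 over all genes tested. For CTCF 0 of 8967 genes (0%) were called, with 72 at an unadjusted p under 0.05 in limma. Of the 8 members tested 0 were called and 0 had an unadjusted p under 0.05, with differences from -0.72 at Pds5a to 0.71 at Stag1 and an adjusted p of 0.99 at each. The single WT list is assumed there to vary like the KO lists. The power of such counts was low: in simulated SMC1A lists 3 of 100 genes with a 4-fold difference and 0 of 100 with a 2-fold difference were called, so a missing call does not show that density was alike.

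The wider list of 32 related genes, among them other cohesin subunits and regulators, condensins and partners of CTCF, had an SMC1A region in all 4 lists at 25 genes. No share over all genes is given beside that count. The wider list lost 3 of 54 SMC1A regions (5.56%) and gained 5 of 57 (8.77%), beside the 4.15% and 13.1% of the genome. Losses fell at Rec8, a cohesin subunit of meiosis, at Esco1, an acetyltransferase that acts on SMC3, and at Maz, a zinc finger protein. Among the gains were regions at Rec8 too, at Pttg1 (securin), at Bub1, a kinase of the mitotic checkpoint, and at Top2b, a topoisomerase. The gain at Top2b, on chromosome 14 at 16372587 to 16373477, had the highest values of these gains, with a −log10 q of 16.3 and 5.65 in KO. Of 11 genes of this list tested for SMC1A density, 0 were called by limma. An unadjusted limma p under 0.05 was found at 2 of them, against 592 of all 4547 genes tested. CTCF regions were lost at 24 of 121 (19.8%), against 18.9% over the genome.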

How the data were processed

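CUT&RUN peaks of SMC1A and CTCF in sorted DP thymocytes of Satb1 KO and WT mice were analysed. Per the submitters' processing notes the build was mm10 and the tools were MACS2, Bowtie2, Trimmomatic 1.24, SAMtools, deepTools and R 4.12. Their settings and the peak-calling control were not given in the sources used here. As deposited by the authors, narrowPeak lists, 1 per library, hold per peak a fold enrichment (ratio), −log10 p and −log10 q values and a summit offset; the lists of WT replicate 1 were matched to their samples by peak names. They hold no read counts, so no count model was used.

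Peaks of 1 protein on standard chromosomes were merged where they overlapped by 1 bp or more. Genes and starts came from RefSeq tables of GRCm38.p6; 4392 of 21883 genes had no start there, and both ends were used. Exons were not annotated, so exonic or intronic position is not stated. Pile-up and background were solved from fold and −log10 p under a Poisson model for 304 of 304 member peaks, within 0.001. Tests were limma 3.58.1 (mean-variance trend, Benjamini-Hochberg over all genes tested) and an exact permutation test, run in R 4.3.3 and Python 3.11.15 with scipy 1.17.1, pandas 2.3.3 and numpy 2.4.6. Wilson intervals cover counting error only.

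Members and lists were chosen with earlier results of these data known. Regions named are those at starts, all lost or gained ones and per gene the one in all 4 SMC1A lists with the highest value in its weakest list; pathway genes are named where they hold a lost or gained SMC1A region, except 1 that is not reported here. Replicate numbers match the batch in the labels and so pair samples; deviations of same-numbered SMC1A lists had a correlation of -5.2e-05 over 4547 genes. Alternatives were other thresholds, list lengths, overlaps, distances, filters, pseudocounts, each list left out and the replicate block. The overlap and limma steps were tested on simulated data.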

Additional observations from a re-analysis of the deposited data

How the results depend on the processing

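Of the alternatives planned, 97 values were classed as the same, 29 as moved and 5 as reversed. The first class allowed changes in size, such as an SMC1A density difference at Ctcf of -0.24 with −log10 q of 5 or more, against -0.62. A further 7 values, on starts with a list left out, were chosen after seeing the data and were classed as the same. Genome shares are not given under these alternatives. SMC1A losses at the 10 genes (2) came to 1 with −log10 q of 5 or more, 1 in gene bodies alone, and 2 to 5 with a list left out. Gains (1) came to 0 in gene bodies and 2 to 10 with a list left out. CTCF losses (18) came to 4 with −log10 q of 5 or more and 4 with lists of equal length, and 18 to 31 with a KO list left out. CTCF gains (2) came to 0 with either of those first 2 settings, 1 in gene bodies and 5 to 40 with a KO list left out. Where peaks had to share 0.5 of the shorter one, CTCF losses came to 26 and gains to 4.

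Genes called by limma for SMC1A density (87) came to 45 with the replicate block, 0 with each list's median set to 0, 34 with a mean of 5 or more regions, 0 with a mean of 1 or more, 29 with −log10 q of 5 or more, 0 with lists of equal length and 29 to 186 with a list left out. None of these settings called a member, and the replicate block changed no other call. For CTCF 1 gene, not a member, was called with lists of equal length. The cause was not tested. Signs reversed at Nipbl (0.079 with medians at 0 and 0.12 with −log10 q of 5 or more) and Mau2 (-0.058 for SMC1A with −log10 q of 5 or more, -0.17 with equal lists for CTCF), none past the threshold. The KO minus WT share of SMC1A at CTCF ran from -11.9 to 1.67 points with a list left out, reversed at 1.67 without KO replicate 1.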
